A study of Mus musculus with 30 samples.

Results

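The results below concern E2f1 and 5 genes that E2F factors are known to drive in dividing cells: Mcm7, Pcna, Chaf1a, Chaf1b and Stmn1. Every probe whose only gene symbol is 1 of these 6 names was taken, which gave 7 of the 6267 probes in the table: 1 per gene, and 2 for Stmn1. The choice used names alone and no measured value. All 7 probes were measured on 2 or 3 arrays of each group and were among the 5010 probes tested.

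E2F1 is a transcription factor that is held inactive by the retinoblastoma protein and, once released, switches on genes needed to copy DNA. Among its targets are the helicase subunit MCM7, which opens the double helix, and the sliding clamp PCNA, which tethers the polymerase. CHAF1A and CHAF1B are the large and middle subunits of chromatin assembly factor 1, which puts histones onto new DNA, and stathmin, made from Stmn1, binds tubulin and promotes the shortening of microtubules. E2F3 is a close relative of E2F1. In the mammary gland, cell division belongs mostly to pregnancy, and involution, after the young stop suckling, removes the milk-producing cells by cell death and rebuilds the fat-rich tissue around them.

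RNA from whole mammary glands of wild type mice and of mice heterozygous for E2F3 (E2F3 +/-) was measured at lactation, which the labels also call involution day 0, and on days 1, 2, 3 and 4 of involution. Each of these 10 groups held 3 mice and each of the 30 mice had its own 2-colour array of spotted oligonucleotides. The controls of every day comparison were lactating glands of the same genotype, and all 4 days of a genotype shared those 3 arrays. The labels name no strain, age or structure of the E2F3 allele, and with 0 probes named E2f3 the genotype labels could not be checked against the targeted gene.

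A value is the ratio of gland RNA to a common mouse reference RNA hybridised on the same array, divided by the median ratio of that array. The direction, gland over reference, is likely from the dyes in the labels but is not written in the file. Differences are on the log2 scale with their standard error (±), from 1 limma model over all 30 arrays. Passing means an adjusted p below 0.05, by the Benjamini-Hochberg method across the 5010 probes. A level is not compared between probes, since a ratio to the reference also depends on how much of each RNA the reference held. As a limit, most members had low ratios. Only ratios were used, so a low ratio does not by itself show a low signal or little RNA. By mean log2 ratio E2f1, Mcm7, Pcna, Chaf1b and Chaf1a ranked at percentiles 1.34, 2.69, 3.37, 3.75 and 4.33 of tested probes. The Stmn1 probes M300006321 and M300017258 ranked at 14.4 and 17.3. In whole-gland RNA, fewer cells of a type and less RNA per cell cannot be told apart.

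The gland label was checked by its milk genes, 6 of which were measured on all arrays and averaged log2 7.69 to 8.22 over the 3 wild type lactation arrays and 7.76 to 8.10 over the 3 E2F3 +/- ones. Arrays correlated with each other at 0.379 to 0.962. After each probe's mean over the 30 arrays was subtracted, the correlation with the mean of the other arrays of the group was below 0 for E2F3 +/- day 3 replicate 1 (-0.109) and E2F3 +/- day 4 replicate 3 (-0.0363). On the other 28 arrays it was 0.444 to 0.942. Wild type day 2 replicate 3, at 0.495, is not the lowest of these and is treated as doubtful because it stood apart in an earlier analysis of these data.

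Leaving out 1 of these 3 arrays at a time changed 2 of the 42 member values of their days, from lactation or between genotypes: the wild type day 2 call of E2f1 was lost and E2F3 +/- day 3 of Pcna passed. Without E2F3 +/- day 4 replicate 3 the day 4 difference from lactation was 1.02 for Pcna, 2.22 for Mcm7, and 1.21 and 1.37 for the Stmn1 probes M300006321 and M300017258, and all passed. Without wild type day 2 replicate 3 the Pcna difference from lactation was 0.78 (adjusted p = 0.0267) and its genotype difference -0.99 (adjusted p = 0.0436).

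The sequence before the start site is shown for the genes that moved in opposite directions, because an E2F site in the promoter is what places a gene under E2F control in textbook accounts. RefSeq's promoter table (GRCm38.p6) held 5 of the 6 genes; Stmn1 had no entry. Each window ran from 250 bases before to 50 bases after the annotated start, and the last 200 bases before the start are printed, 5′ to 3′ on the gene's strand, with motif matches in capitals. The letters searched, on both strands, were TTTCCCGC, TTTCGCGC, TTTGCCGC and TTTGGCGC, and the same 4 forms shortened by their first T, which lie inside the longer ones.
Mcm7, chr5:138171884-138172083, minus strand: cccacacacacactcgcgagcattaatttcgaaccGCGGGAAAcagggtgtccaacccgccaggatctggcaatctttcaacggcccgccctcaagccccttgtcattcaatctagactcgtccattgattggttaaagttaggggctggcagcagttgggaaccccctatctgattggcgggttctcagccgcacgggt
Pcna, chr2:132253181-132253380, minus strand: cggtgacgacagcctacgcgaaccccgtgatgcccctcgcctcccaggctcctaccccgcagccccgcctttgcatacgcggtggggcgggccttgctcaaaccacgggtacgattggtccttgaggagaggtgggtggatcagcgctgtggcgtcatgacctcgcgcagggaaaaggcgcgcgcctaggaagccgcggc
Chaf1a, chr17:56040216-56040415, plus strand: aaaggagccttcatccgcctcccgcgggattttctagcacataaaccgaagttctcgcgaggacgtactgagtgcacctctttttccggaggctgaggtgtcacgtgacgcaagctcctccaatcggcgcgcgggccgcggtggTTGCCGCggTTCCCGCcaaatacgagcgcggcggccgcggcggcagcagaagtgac
Chaf1b, chr16:93883701-93883900, plus strand: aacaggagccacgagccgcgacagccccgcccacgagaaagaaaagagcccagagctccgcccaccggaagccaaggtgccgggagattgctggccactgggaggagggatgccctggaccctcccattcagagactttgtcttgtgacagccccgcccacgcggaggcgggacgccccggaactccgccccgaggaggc

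Mcm7, which rose, held the 8-letter form GCGGGAAA at bases -165 to -158 from the start and a further 8-letter match at bases 17 to 24 after it. Its listed start lies 228 bases inside the annotated gene. A second Mcm7 entry, with its start 845 bases inside the gene, held 0 8-letter matches and 1 7-letter match, at -113 to -107, and is not printed. Chaf1a, which fell, held a pair of 7-letter matches at -56 to -50 and -47 to -41. Chaf1b, which also fell, held 7-letter matches at -227 to -221 and 27 to 33, both outside the printed stretch. Pcna had no match in its window, which says only that these letters are not there. The E2f1 entry starts 466 bases inside the annotated gene and is not printed. Of 32851 promoter windows of this length, 2.26% held an 8-letter match and 9.57% a 7-letter match. A match is a description of the letters, not evidence of binding, and matches stood in windows of genes that rose as well as genes that fell.

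The 6 genes did not move together. Across the 4 days and both genotypes, E2f1, Chaf1a and Chaf1b passed only in the lower direction and Pcna, Mcm7 and Stmn1 only in the higher direction. Of all tested probes, 47.9% passed only higher, 43.8% only lower and 3.17% in both directions, so the split of the 7 probes is close to that of probes in general. It was the same, 4 higher and 3 lower, with the arrays centred on their medians, as deposited and after quantile normalization. Of the 56 combinations of a member probe and a day, 41 passed, 23 higher and 18 lower, where 53.0% of all such combinations of tested probes passed.

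By day, 3 of the 7 probes passed on wild type day 1, when 36.7% of all probes did: 2 were higher (18.5% of all) and 1 was lower (18.2%). On wild type day 2 all 7 passed (65.2% of all), 4 higher (31.8%) and 3 lower (33.4%). On wild type day 3 6 passed (39% of all), 3 higher (17.4%) and 3 lower (21.6%), and on day 4 4 passed (56.4% of all), 1 higher (25.4%) and 3 lower (31%). The E2F3 +/- counts were 4 on day 1 (43.6% of all), 3 higher (23.2%) and 1 lower (20.3%), and 5 on day 2 (45.9% of all), 3 higher (23.7%) and 2 lower (22.2%). On E2F3 +/- day 3 6 passed (66.8% of all), 3 higher (34.2%) and 3 lower (32.7%), and on day 4 6 passed (70.5% of all), 4 higher (33.2%) and 2 lower (37.4%). With so many probes passing, these counts single out nothing about the 7 probes.

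Tested over the 4 days jointly, 7 of 7 probes passed in wild type glands, where 82% of all probes did, and 6 of 7 in E2F3 +/- glands, where 77.1% did. The exception was Chaf1a in E2F3 +/- glands (adjusted p = 0.0647, limma F test).

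**Figure D1:**
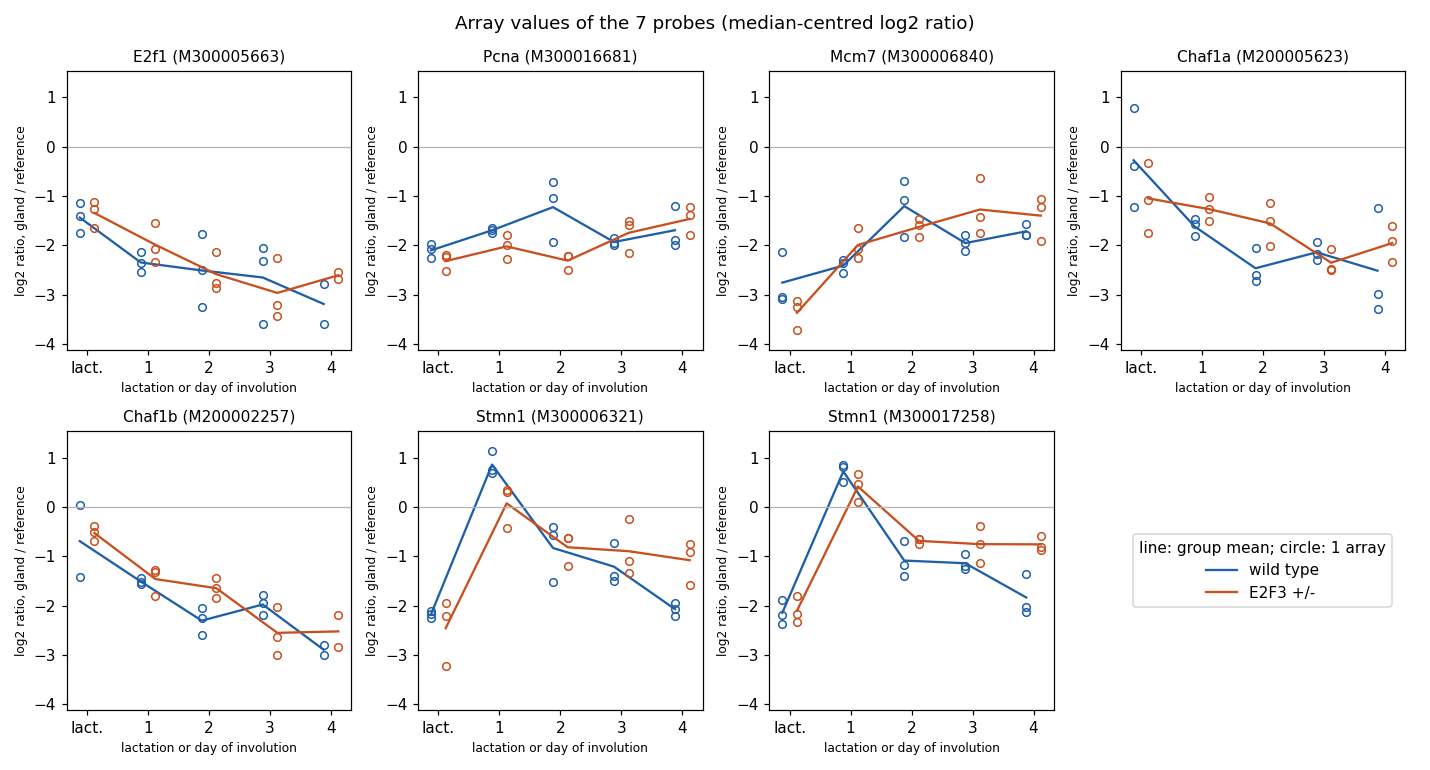
Median-centred log2 ratio of gland over reference (vertical axis) for each of the 7 probes at lactation and on days 1 to 4 of involution (horizontal axis), wild type in blue and E2F3 +/- in orange; each circle is 1 array and the line joins group means of the 2 or 3 arrays with a value. The group means of E2f1, Chaf1a and Chaf1b on days 1 to 4 lie below lactation and those of Mcm7 above it, not always in a steady course. The group mean of both Stmn1 probes is highest on day 1 in both genotypes.

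E2f1 (probe M300005663) had lower group means on days 1 to 4 of involution than at lactation in both genotypes. Its ratio was 0.452, 0.297 and 0.377 on the wild type lactation arrays and 0.319, 0.459 and 0.418 on the E2F3 +/- ones. On wild type day 3 it was 0.242, 0.0836 and 0.201, and on day 4 it was 0.146 and 0.083 on the 2 arrays with a value, replicate 1 being listed at 0. On E2F3 +/- day 3 it was 0.108, 0.21 and 0.0933, and on day 4 it was 0.156 and 0.173, with replicate 2 listed at 0. No measured wild type array of any day reached the lowest of its lactation arrays. As deposited, before centring, day 2 replicate 2 (0.310) lay above lactation replicate 2 (0.297). In E2F3 +/- glands 1 array reached the lowest of its lactation arrays, day 1 replicate 2 at 0.342. Such separation from lactation, in either direction, was common. It held for 64.5%, 67.4%, 74% and 70.9% of all probes on wild type days 1 to 4. On E2F3 +/- days 1 to 4 it held for 71%, 74.6%, 74.4% and 72.7%.

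The E2f1 difference from lactation in wild type glands passed on days 2, 3 and 4 (-1.07 ± 0.39, -1.21 ± 0.39 and -1.75 ± 0.44), and in E2F3 +/- glands on the same days (-1.24 ± 0.39, -1.62 ± 0.39 and -1.26 ± 0.44). Day 1 did not pass in either genotype (-0.91 ± 0.39, adjusted p = 0.0745, and -0.64 ± 0.39, adjusted p = 0.174). From day 1 on, no step between neighbouring days passed in either genotype. The order of its 10 group means ran from E2F3 +/- lactation, at 0.394, to wild type day 4, at 0.110, a 3.59-fold range, and no neighbouring pair in that order passed (smallest adjusted p = 0.254). Leaving out wild type day 2 replicate 3 turned the day 2 value to -0.70 (adjusted p = 0.150), and day 2 also missed the threshold if lactation replicate 1 (adjusted p = 0.0772) or 3 (adjusted p = 0.0511) was left out. Day 3 became -0.75 if its replicate 2 was left out (adjusted p = 0.152), and missed the threshold if lactation replicate 1 (adjusted p = 0.0701) or 3 (adjusted p = 0.0504) was. Day 4 missed it if its replicate 3 was left out (adjusted p = 0.0514). Among E2F3 +/- values, day 2 missed it if lactation replicate 2 (adjusted p = 0.0547) or its own replicate 1 (adjusted p = 0.0611) was left out, and day 4 if its replicate 1 was (adjusted p = 0.0737). Day 3 passed with any 1 array left out. Wild type day 1 passed after quantile normalization (adjusted p = 0.0497), with array weights (adjusted p = 0.0372) and with only the groups compared (adjusted p = 0.0116). After quantile normalization wild type day 2 (-0.56, adjusted p = 0.221) and E2F3 +/- day 4 (-0.94, adjusted p = 0.0688) did not pass. Wild type day 2 also missed the threshold with array weights (adjusted p = 0.157) and with only the groups compared (adjusted p = 0.0537).

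The day 4 values of E2f1 leave out an array listed at 0 in each genotype. With ratios at 0 or 0.01 set to the lowest other value, in place of missing, the day 4 difference was -2.77 in wild type (adjusted p = 0.00363) and -2.37 in E2F3 +/- glands (adjusted p = 0.00757). Under that setting the calls of wild type days 2 and 3 (adjusted p = 0.166 and 0.139) and of E2F3 +/- day 2 (adjusted p = 0.148) were lost. On the log2(ratio + 0.1) scale, which keeps arrays listed at 0, all 6 calls stayed.

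Mcm7 (probe M300006840), the helicase subunit, rose while E2f1 fell. Its ratio on the wild type lactation arrays was 0.229, 0.121 and 0.118, and on day 1 it was 0.203, 0.169 and 0.194. It was 0.283, 0.471 and 0.615 on wild type day 2, and 0.336, 0.290 and 0.291 on day 4. Every wild type array of days 2 to 4 lay above the 3 lactation arrays, and the day 1 arrays lay among them. On those days 67.4%, 74% and 70.9% of all probes were separated from lactation in either direction.

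In E2F3 +/- glands Mcm7 lay above lactation from day 1 on. The difference in day 1 response between the genotypes did not pass (1.03, adjusted p = 0.503, limma). The E2F3 +/- ratio of Mcm7 was 0.115, 0.105 and 0.076 at lactation and 0.318, 0.210 and 0.238 on day 1. It was 0.299, 0.640 and 0.371 on day 3 and 0.426, 0.483 and 0.267 on day 4. All 12 E2F3 +/- involution arrays lay above all 3 lactation arrays of that genotype. On E2F3 +/- days 1 to 4, 71%, 74.6%, 74.4% and 72.7% of all probes were separated from lactation in either direction.

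On wild type days 1 to 4 the Mcm7 difference from lactation was 0.34 ± 0.31, 1.55 ± 0.31, 0.80 ± 0.31 and 1.04 ± 0.31 (adjusted p = 0.376, 0.000222, 0.0430 and 0.00765). With the heterozygous glands it was 1.37 ± 0.31, 1.74 ± 0.31, 2.09 ± 0.31 and 1.97 ± 0.31 (adjusted p = 0.00131, 0.000131, 1.21e-05 and 1.77e-05). Between wild type days 1 and 2 Mcm7 rose by 1.20 ± 0.31 (adjusted p = 0.00314). The wild type day 3 call was lost without lactation replicate 2 (adjusted p = 0.153) or 3 (adjusted p = 0.160), and without day 3 replicate 1 (adjusted p = 0.118), 2 (adjusted p = 0.0637) or 3 (adjusted p = 0.0833). On the log2(ratio + 0.1) scale, which compresses low ratios, the wild type day 3 and day 4 differences were 0.37 (adjusted p = 0.300) and 0.57 (adjusted p = 0.0888), and those of E2F3 +/- glands ran from 0.71 to 1.29 and kept passing. Group means of Mcm7 ran from 0.0971 at E2F3 +/- lactation to 0.434 at wild type day 2, a 4.47-fold range, and no neighbouring pair passed (smallest adjusted p = 0.376).

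Pcna (probe M300016681), the sliding clamp, moved least of the 6 genes by the range of its group means, 2.13-fold, and passed on 1 day in each genotype. Its ratio on wild type lactation arrays was 0.239, 0.209 and 0.255, and on wild type day 2 it was 0.263, 0.610 and 0.488. For E2F3 +/- it was 0.211, 0.219 and 0.175 at lactation and 0.216, 0.216 and 0.177 on day 2. It was 0.226, 0.334 and 0.352 on E2F3 +/- day 3 and 0.430, 0.384 and 0.289 on day 4. The wild type day 2 arrays spread widely, with replicate 1 close to lactation, while the 3 arrays of E2F3 +/- day 2 lay among those of lactation.

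Pcna was higher than at lactation by 0.87 ± 0.26 on wild type day 2 (adjusted p = 0.00596) and by 0.85 ± 0.26 on E2F3 +/- day 4 (adjusted p = 0.00636). With only the groups compared in the model the first of these did not pass (adjusted p = 0.0695), and after quantile normalization it was 1.32 (adjusted p = 0.00103). On wild type days 1, 3 and 4 the difference was 0.41, 0.17 and 0.41 ± 0.26 (adjusted p = 0.220, 0.586 and 0.173). On E2F3 +/- days 1, 2 and 3 it was 0.30, 0.01 and 0.57 ± 0.26 (adjusted p = 0.335, 0.978 and 0.0557). The E2F3 +/- day 3 difference passed without day 3 replicate 1 of that genotype (adjusted p = 0.0208), the array that correlated below 0 with its group. No neighbouring pair in the order of the Pcna group means passed (smallest adjusted p = 0.515).

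Chaf1a (probe M200005623), the large subunit of the histone chaperone, fell from the first day in wild type glands. Its ratio at wild type lactation was 0.431, 1.71 and 0.764. It was 0.361, 0.287 and 0.336 on day 1, 0.165, 0.240 and 0.151 on day 2, and 0.422, 0.102 and 0.126 on day 4. Lactation was the most scattered wild type group after day 4 (SD 1.00 and 1.11 on the log2 scale, n = 3 each), with replicate 2 far above the other lactation arrays.

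The Chaf1a ratio of E2F3 +/- glands was 0.299, 0.474 and 0.800 at lactation, 0.415, 0.494 and 0.352 on day 1, and 0.178, 0.238 and 0.178 on day 3. The day 1 arrays lay within the range of lactation, and the day 3 arrays all lay below it, where 74.4% of all probes were separated in either direction.

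The Chaf1a difference from lactation was -1.34 ± 0.45, -2.19 ± 0.45, -1.86 ± 0.45 and -2.24 ± 0.45 on wild type days 1 to 4 (adjusted p = 0.0223, 0.000292, 0.00242 and 0.000351). Without wild type lactation replicate 2 day 1 was -0.81 (adjusted p = 0.178), and the day 1 call was also lost without day 1 replicate 2 (adjusted p = 0.0696). For E2F3 +/- it was -0.22, -0.51, -1.30 and -0.90 ± 0.45, of which day 3 passed (adjusted p = 0.685, 0.339, 0.0154 and 0.0736). The day 3 call was lost without E2F3 +/- lactation replicate 3 (adjusted p = 0.0962), and day 4 passed without lactation replicate 1 (adjusted p = 0.0294). Whether the fall differed between genotypes was tested directly: the response was higher in E2F3 +/- by 1.12, 1.68, 0.56 and 1.33 ± 0.63 on days 1 to 4, and none passed (adjusted p = 0.740, 0.205, 0.787 and 0.451).

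Chaf1b (probe M200002257), the middle subunit of the same complex, fell in both genotypes. Its ratio was 1.02 and 0.374 on the wild type lactation arrays with a value and 0.617, 0.763 and 0.708 on the E2F3 +/- ones. It was 0.209, 0.166 and 0.240 on wild type day 2 and 0.126, 0.162 and 0.244 on E2F3 +/- day 3. On wild type day 4 it was 0.125 and 0.145 and on E2F3 +/- day 4 0.139 and 0.218. Wild type lactation replicate 2 and replicate 1 of day 4 in both genotypes were listed at 0. All measured involution arrays of each genotype lay below all measured lactation arrays of that genotype. The share of all probes separated in 1 direction over all 4 days was not counted. Taken day by day and in either direction, 64.5%, 67.4%, 74% and 70.9% of all probes were separated on wild type days 1 to 4. For E2F3 +/- days 1 to 4 the shares were 71%, 74.6%, 74.4% and 72.7%.

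The Chaf1b difference from lactation was -0.82 ± 0.34 on wild type day 1 (adjusted p = 0.0620) and -1.61 ± 0.34, -1.28 ± 0.34 and -2.20 ± 0.37 on days 2 to 4 (adjusted p = 0.000459, 0.00531 and 8.39e-05). For E2F3 +/- it was -0.93 ± 0.30, -1.12 ± 0.30, -2.02 ± 0.30 and -1.99 ± 0.34 (adjusted p = 0.0182, 0.00580, 2.19e-05 and 6.10e-05). Between wild type days 1 and 2 it fell by 0.79 ± 0.30 (adjusted p = 0.0342), a call lost without any array of day 1 (adjusted p = 0.0653 to 0.0789) or without day 2 replicate 1 (adjusted p = 0.0571) or 2 (adjusted p = 0.116). After quantile normalization this step was -0.24 (adjusted p = 0.595).

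The wild type values of Chaf1b rest on 2 lactation arrays that stand far apart. Without replicate 1 the day 2 difference was -0.88 (adjusted p = 0.0358) and the day 3 difference -0.56 (adjusted p = 0.216). Without replicate 3 the day 3 difference was -2.01 (adjusted p = 0.000281), and day 1 passed (adjusted p = 0.00250). With ratios at 0 set to the lowest other value of the table, in place of missing, the 3 passing wild type calls were lost. Day 3 turned to 0.23 (adjusted p = 0.880) and day 1, which had not passed, to 0.75 (adjusted p = 0.594). On the log2(ratio + 0.1) scale the wild type differences were 0.17, -0.43, -0.23 and -1.30 on days 1 to 4, and none passed (adjusted p = 0.834, 0.533, 0.765 and 0.0577). On that scale the E2F3 +/- calls of days 1 and 2 were lost as well (adjusted p = 0.218 and 0.157), while those of days 3 and 4 passed (-1.68 and -2.13). The E2F3 +/- day 1 call was lost without lactation replicate 2 (adjusted p = 0.0600) or day 1 replicate 3 (adjusted p = 0.0785). Of the E2F3 +/- calls, only that of day 4 remained with ratios at 0 set to the lowest other value (-3.11, adjusted p = 0.0124).

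Stmn1, the tubulin-binding stathmin, gave the widest movement of the 6 genes and, in wild type glands, the 1 clear peak. On probe M300006321 its ratio was 0.211, 0.231 and 0.223 at wild type lactation and 2.20, 1.62 and 1.67 on day 1. By wild type day 4 it was 0.238, 0.261 and 0.217. On probe M300017258 the same arrays gave 0.273, 0.194 and 0.219 at lactation, 1.75, 1.42 and 1.80 on day 1 and 0.247, 0.391 and 0.229 on day 4. Both probes were higher on every wild type day 1 array than on any other wild type array, and on day 4 they overlapped with lactation. Wild type day 1 and lactation were separated, in either direction, for 64.5% of all probes.

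Probe M300006321 read, in E2F3 +/- glands, 0.261, 0.108 and 0.215 at lactation, 1.26, 1.23 and 0.749 on day 1 and 0.533, 0.336 and 0.594 on day 4. Probe M300017258 read 0.285, 0.222 and 0.200 at lactation, 1.59, 1.38 and 1.08 on day 1 and 0.664, 0.549 and 0.567 on day 4. Here the day 4 arrays of both probes lay above every lactation array, where 72.7% of all probes were separated in either direction. On M300017258 every day 1 array lay above every other E2F3 +/- array. On M300006321 day 1 replicate 3, at 0.749, lay below day 3 replicate 2, at 0.840.

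The Stmn1 difference on probe M300006321 was 3.03 ± 0.35, 1.34 ± 0.35, 0.96 ± 0.35 and 0.10 ± 0.35 on wild type days 1 to 4, and 2.53 ± 0.35, 1.64 ± 0.35, 1.56 ± 0.35 and 1.38 ± 0.35 in E2F3 +/- glands. All passed except wild type day 4 (adjusted p = 0.794). Probe M300017258 gave 2.86 ± 0.24, 1.06 ± 0.24, 1.00 ± 0.24 and 0.31 ± 0.24 in wild type and 2.52 ± 0.24, 1.41 ± 0.24, 1.35 ± 0.24 and 1.34 ± 0.24 in E2F3 +/- glands, with the same exception (adjusted p = 0.260). On day 1 these were 8.18-fold and 7.28-fold increases in wild type, and 5.77-fold and 5.72-fold increases in E2F3 +/- glands. The wild type day 3 call of M300006321 was lost without lactation replicate 1 (adjusted p = 0.0725), 2 (adjusted p = 0.0614) or 3 (adjusted p = 0.0668) or day 3 replicate 1 (adjusted p = 0.141), while that of M300017258 held without any single array. The probes followed each other with r = 0.980 over the 10 group means, a description of the same RNAs on the same arrays.

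From day 1 to day 2 in wild type glands Stmn1 fell by 1.69 ± 0.35 on M300006321 (adjusted p = 0.000529) and by 1.81 ± 0.24 on M300017258 (adjusted p = 9.76e-06). The same step of E2F3 +/- glands was -0.89 ± 0.35 (adjusted p = 0.385) and -1.10 ± 0.24 (adjusted p = 0.0607). Only 0.12% of all probes passed at that step in E2F3 +/- glands, against 50.4% in wild type glands, and the difference between the genotypes at this step was not tested. Over the 6 steps between neighbouring days, 4 of the 42 member values passed, all between wild type days 1 and 2: Mcm7 higher, and Chaf1b and both Stmn1 probes lower. At the wild type step from day 2 to day 3, where 16.5% of all probes passed, 0 of the 7 member probes did (2 at an unadjusted p under 0.05, limma). At the steps after that, and at the E2F3 +/- steps from day 2 on, 0% of all probes passed. Without wild type day 2 replicate 1, Pcna also passed at the step up to day 2 (adjusted p = 0.0103), and Pcna (adjusted p = 0.0147) and Mcm7 (adjusted p = 0.0360) at the step after it.

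**Figure D2:**
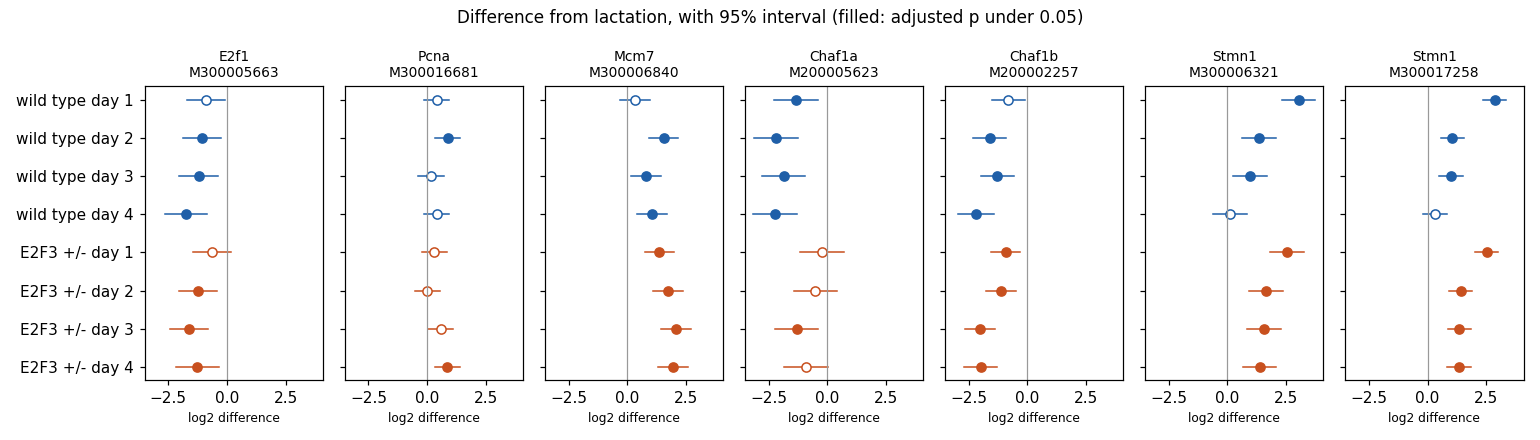
Log2 difference from lactation of the same genotype (horizontal axis) for each probe, in rows by genotype and day; points are limma estimates, lines their 95% intervals, and filled points passed at adjusted p under 0.05. Filled points lie left of 0 for E2f1, Chaf1a and Chaf1b and right of 0 for Pcna, Mcm7 and both Stmn1 probes, with the farthest at 3.03 for Stmn1 on wild type day 1.

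E2F3 +/- and wild type glands differed at 2 of the 42 combinations of a member probe and a genotype comparison (5 times and their mean). Pcna was lower in E2F3 +/- glands on day 2, by 1.08 on the log2 scale (-1.08 ± 0.26, adjusted p = 0.0114, limma), when 12.7% of all probes passed and 5.57% passed lower. The Pcna ratio was 0.177 to 0.216 on the 3 heterozygous arrays and 0.263 to 0.610 on the 3 wild type arrays. This Pcna difference missed the threshold if E2F3 +/- day 2 replicate 3 was left out (adjusted p = 0.0670) and with only the groups compared in the model (adjusted p = 0.109). On the same arrays the mean level of 11 macrophage genes was 3.15 to 4.65 in wild type and 1.67 to 2.17 in E2F3 +/- glands. That of the 6 milk genes was 3.93 to 5.70 and 7.10 to 7.33, and that of 4 fibroblast genes 0.43 to 1.53 and -0.71 to 0.015. The ranges of the genotypes overlapped for 6 luminal epithelial genes (1.17 to 3.45 and 2.81 to 3.40) and 4 adipocyte genes (5.84 to 7.61 and 5.29 to 6.74). They also overlapped for 3 skeletal muscle genes (2.34 to 5.52 and 2.97 to 4.44) and 2 myoepithelial genes (3.09 to 3.17 and 2.88 to 3.95). Their part in the result was not tested.

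Stmn1 was higher in E2F3 +/- glands on day 4 on probe M300017258 (1.07 ± 0.24, adjusted p = 0.0298), when 1.12% of all probes passed and 0.18% passed higher. On probe M300006321 the difference was 0.99 ± 0.35 and did not pass (adjusted p = 0.148). The day 4 ratios on M300017258 were 0.549 to 0.664 in E2F3 +/- and 0.229 to 0.391 in wild type glands. On M300006321 they were 0.336 to 0.594 and 0.217 to 0.261. The M300017258 difference missed the threshold if 1 array was left out: wild type day 4 replicate 1 (adjusted p = 0.113) or 3 (adjusted p = 0.118), or E2F3 +/- day 4 replicate 1 (adjusted p = 0.161) or 2 (adjusted p = 0.0799). It also missed it with only the groups compared (adjusted p = 0.745). On the wild type and E2F3 +/- arrays of that day the 6 luminal epithelial genes averaged 2.81 to 3.10 and 2.90 to 3.14. The 11 macrophage genes averaged 3.37 to 3.90 and 2.61 to 3.63, and the 6 milk genes 5.31 to 6.84 and 4.23 to 7.03. The 4 fibroblast genes averaged 0.35 to 1.22 and 0.46 to 0.85, and the 4 adipocyte genes 5.38 to 7.16 and 5.84 to 7.02. The 3 skeletal muscle genes averaged 3.48 to 5.32 and -0.0089 to 6.18, and the 2 myoepithelial genes 3.26 to 4.48 and 3.05 to 3.20. Their part in the result was not tested.

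At lactation, where 0.379% of all probes passed between genotypes, 0 of the 7 member probes did, and 0 had an unadjusted p under 0.05 (limma). On day 1 (0.659% of all probes) 0 passed and 1 had an unadjusted p under 0.05, and on day 3, where 0% of all probes passed, the same counts held. For the mean of the 5 times (0.619% of all probes) 0 passed and 2 had an unadjusted p under 0.05. For E2f1 that mean was 0.13 ± 0.19, with a 95% interval of -0.26 to 0.51, and for Mcm7 it was 0.08 ± 0.14 with an interval of -0.21 to 0.36. For Stmn1 on M300017258 it was 0.32 ± 0.11 (interval 0.097 to 0.54, adjusted p = 0.178) and on M300006321 0.05 ± 0.15 (interval -0.27 to 0.37). These intervals leave room for differences of up to about the size of their ends, so a missed threshold does not show that the genotypes had the same level.

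The time courses were also compared between genotypes as a whole. The limma F test of genotype by time passed for 0 of the 7 probes, where 6.05% of all probes passed, and 4 had an unadjusted p under 0.05. The lowest adjusted p values were 0.0681 and 0.0961 for the Stmn1 probes M300017258 and M300006321, 0.0786 for Pcna and 0.117 for Mcm7. By day, 0 of 28 member values passed (8 at an unadjusted p under 0.05), where 0.379%, 0%, 0.24% and 0.319% of all probes passed on days 1 to 4. The response of Mcm7 was higher in E2F3 +/- by 1.03, 0.19, 1.29 and 0.93 ± 0.44 on days 1 to 4 (adjusted p = 0.503, 0.842, 0.402 and 0.439). Without the 2 arrays that correlated below 0 with their groups, the Mcm7 difference in response at day 3 passed (adjusted p = 0.0300), as did its genotype difference at that day (adjusted p = 0.0496). Without wild type day 2 replicate 3 and E2F3 +/- day 4 replicate 3, the Stmn1 response on M300017258 at day 4 passed (adjusted p = 0.0489), as did its mean genotype difference (adjusted p = 0.0299).

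**Figure D3:**
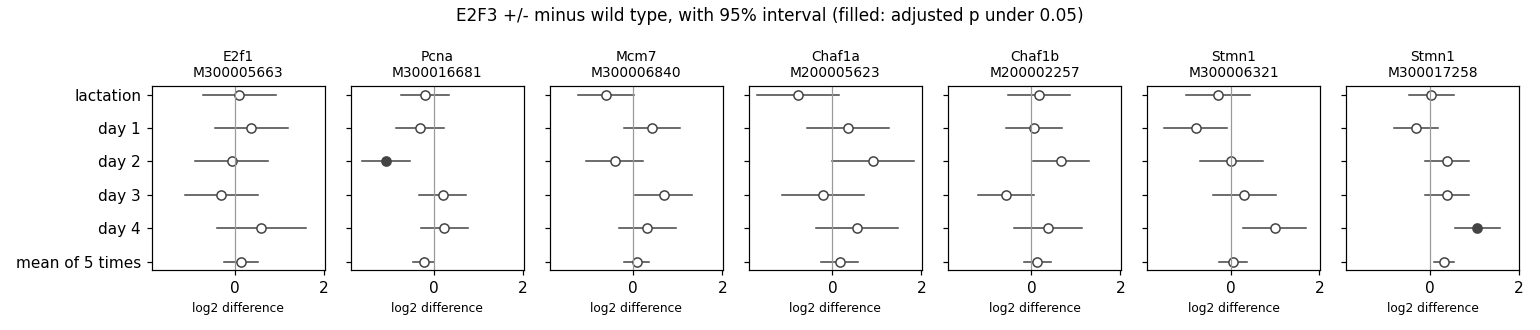
Log2 difference, E2F3 +/- minus wild type (horizontal axis), for each probe at lactation, on days 1 to 4 and as the mean of the 5 times; points are limma estimates, lines their 95% intervals, and filled points passed at adjusted p under 0.05. The filled points are Pcna at day 2 (-1.08) and Stmn1 M300017258 at day 4 (1.07).

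Other genes of DNA replication and S phase, from a list of 16 on the array with 13 tested, also went both ways. Over the 8 day comparisons, 6 passed only in the higher direction, 6 only in the lower direction and 1, Pole4, in neither, where 54.7% of the 2901 tested genes passed only higher, 37.4% only lower and 4.72% in neither. The higher ones were Pold1, the catalytic subunit of polymerase delta (7 of 8 days), Rfc2 of the clamp loader (7), Orc5 of the origin recognition complex (5), the helicase subunit Mcm4 (3), Rfc1 (3) and the histone-binding Rbbp7 (3). The lower ones were Pold3, an accessory subunit of polymerase delta (7), the flap nuclease Fen1 (6), Rfc5 (6), Orc4 (4), cyclin A2, Ccna2 (3), and the phosphatase Cdc25a (2), whose calls were lost with the values as deposited. Subunits of a single complex thus stood on both sides: Pold1 and Pold3, Rfc2 and Rfc5, Orc5 and Orc4.

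Among the 4 replication genes with the largest mean differences, Fen1 was lower by -1.57 ± 0.38 on wild type day 1 (adjusted p = 0.00199) and by -0.95 ± 0.38 on E2F3 +/- day 1 (adjusted p = 0.0441). Pold3 was lower by -1.41 ± 0.29 on wild type day 2 (adjusted p = 0.000261) and by -1.74 ± 0.32 on E2F3 +/- day 4 (adjusted p = 0.000105). Ccna2 was lower by -1.73 ± 0.60 on E2F3 +/- day 3 (adjusted p = 0.0161), and on wild type day 2 it gave 0.07 ± 0.60 (adjusted p = 0.917). Orc4 was lower by -1.52 ± 0.38 on E2F3 +/- day 2 (adjusted p = 0.00279). On wild type day 4, 4 of the 13 replication genes passed higher and 5 lower, beside 29.5% and 26.0% of 2901 tested genes, and the list's median was -0.22 beside 0.31 for all genes. On E2F3 +/- day 4, 5 passed higher and 4 lower (40.0% and 30.7% of all genes), with a median of 0.55 beside 0.37.

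Of 3 tested genes of mitosis, the proliferation marker Mki67 was lower on 7 of the 8 days. Its difference was -2.67 ± 0.62 on wild type day 1 (adjusted p = 0.00155) and -2.34 ± 0.55 on E2F3 +/- day 3 (adjusted p = 0.00116), and the day that did not pass was wild type day 2 (-0.81 ± 0.55, adjusted p = 0.191). The spindle checkpoint gene Bub3 was higher on 7 days, with 1.49 ± 0.25 on E2F3 +/- day 4 (adjusted p = 2.84e-05). The condensin subunit Ncapd2 was higher on 5, with 1.35 ± 0.27 on E2F3 +/- day 2 (adjusted p = 0.000335). Of the 2 tested G1 genes, cyclin D2, Ccnd2, was higher on 5 days, with 1.72 ± 0.33 on E2F3 +/- day 3 (adjusted p = 0.000173). Cdk4 passed on 0 of 8 days in the model of all 30 arrays but on some day with the values as deposited or quantile normalized.

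Beside Stmn1, 5 of 5 tested tubulin and microtubule genes were higher on at least 1 day and lower on none, as were 54.7% of all tested genes. Tubb2b, a beta tubulin, was higher on 6 days, with 1.66 ± 0.36 on wild type day 1 (adjusted p = 0.000696) and 1.82 ± 0.36 on E2F3 +/- day 2 (adjusted p = 0.000285). Map4, which binds microtubules, was higher on 6, with 1.62 ± 0.28 on wild type day 2 (adjusted p = 5.15e-05). The tubulin folding cofactors Tbcb (7 days), Tbcd (4) and Tbca (1) were higher too. Of the tested genes of these lists, 2 differed by genotype, both on day 2, when 8.24% of all genes were higher and 7.65% lower in E2F3 +/- glands: Map4 was lower there (-1.05 ± 0.28, adjusted p = 0.0174) and Cdc25a was higher (1.17 ± 0.36, adjusted p = 0.0318).

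The E2F and retinoblastoma family could not be followed beyond E2f1. Of its 12 other names only Rb1 had a probe, with values on 28 of 30 arrays, and it failed the filter for testing.

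**Figure D4:**
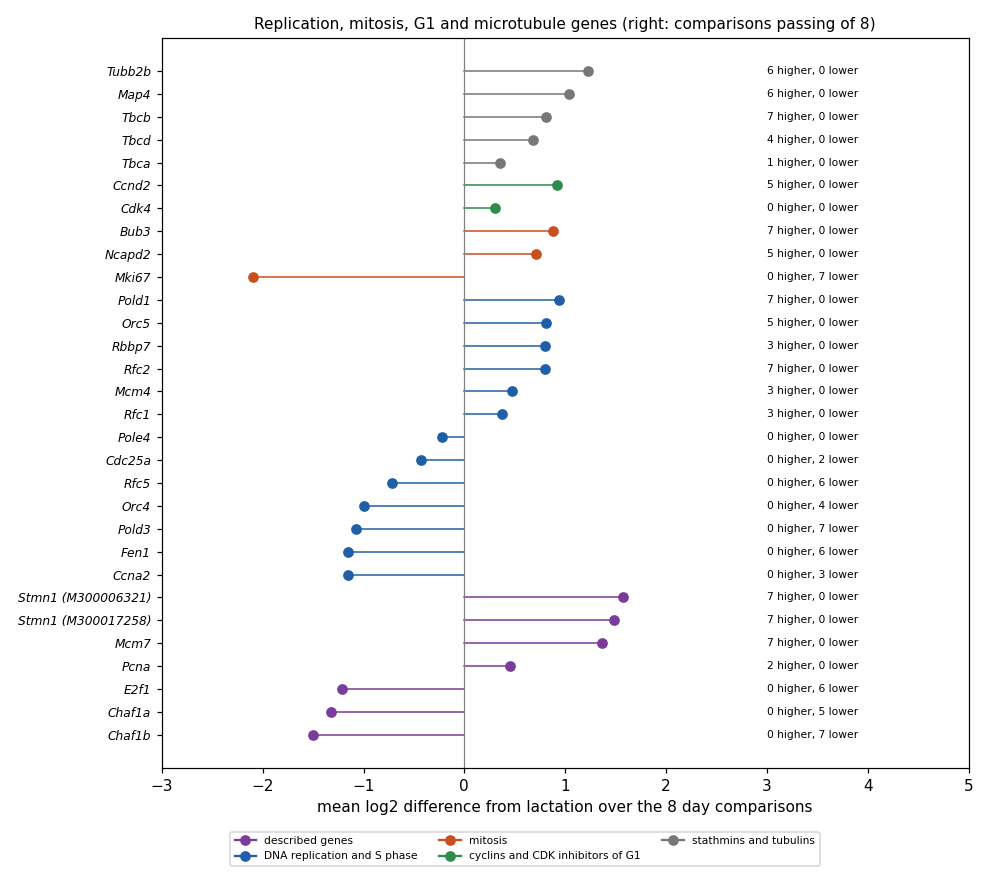
Mean log2 difference from lactation over the 8 day comparisons (horizontal axis) for the 7 probes described here and for the tested genes of 4 lists, coloured by list; the text at the right gives the number of the 8 comparisons passed in each direction. Replication genes lie on both sides of 0, and Mki67 (-2.09) lies farthest to the left.

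Markers of the cell types that make up the gland moved over the same days. The mean level of 6 of the 8 luminal epithelial genes on the array, those measured on all arrays, was 1.33 to 2.19 at wild type lactation, 3.83 to 4.54 on day 1, 1.17 to 3.45 on day 2, 2.92 to 3.51 on day 3 and 2.81 to 3.10 on day 4. The E2F3 +/- ranges were 1.69 to 2.37, 3.28 to 3.61, 2.81 to 3.40, 3.12 to 3.59 and 2.90 to 3.14. It was highest on day 1 in wild type glands, as Stmn1 was, and a link was not tested. In E2F3 +/- glands its day 1 range overlapped with those of days 2 and 3.

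The mean level of 11 of the 14 macrophage genes on the array was 0.16 to 0.97 at wild type lactation, 0.75 to 1.35 on day 1, 3.15 to 4.65 on day 2, 2.97 to 3.68 on day 3 and 3.37 to 3.90 on day 4. The E2F3 +/- ranges were -0.30 to 0.090, 0.96 to 1.56, 1.67 to 2.17, 2.49 to 3.48 and 2.61 to 3.63. Adipocyte genes (4 of 5) stood at 3.73 to 4.99 at wild type lactation and 5.84 to 7.61 on day 2, and at 3.50 to 4.52 and 5.29 to 6.74 in E2F3 +/- glands. Milk genes (6 of 7) stood at 5.31 to 6.84 on wild type day 4 and 4.23 to 7.03 on E2F3 +/- day 4, below lactation. Mcm7 and the macrophage, adipocyte, fibroblast and skeletal muscle genes were all higher on wild type day 2 than at lactation. A link between them was not tested. The macrophage marker Adgre1 had a value on 26 of 30 arrays. Milk genes passed lower for 2, 5, 1 and 5 of 6 tested genes on wild type days 1 to 4. The shares of all tested genes were 19.3%, 30.9%, 22.1% and 26.0%. In E2F3 +/- glands the counts of milk genes passing lower on days 1 to 4 were 0, 1, 4 and 5, beside 20.0%, 21.7%, 29.1% and 30.7% of all tested genes. A link to the falls of E2f1, Chaf1a and Chaf1b was not tested.

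Skeletal muscle and fibroblast genes moved over these days too. The mean level of 3 of the 9 skeletal muscle genes was -1.18 to 0.81 at wild type lactation, 2.34 to 5.52 on day 2 and 3.48 to 5.32 on day 4, and all 9 genes passed higher on both of those days. At E2F3 +/- lactation it was 1.26 to 1.57 and on day 3 4.08 to 5.35. On E2F3 +/- day 4 it was 4.75 and 6.18 on replicates 1 and 2 and -0.0089 on replicate 3, the array that correlated below 0 with its group. Fibroblast genes (4 of 7) stood at -1.12 to -0.69 at wild type lactation and 0.43 to 1.53 on day 2, and at -1.52 to -1.18 and 0.46 to 0.85 at E2F3 +/- lactation and on day 4. The part of these cell types in the results was not tested.

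Over the 10 group means, the members correlated among themselves at 0.894 (E2f1 and Chaf1a), 0.946 (E2f1 and Chaf1b) and 0.909 (Chaf1a and Chaf1b), and at 0.650 for Pcna and Mcm7. E2f1 and Mcm7 stood at -0.827, Chaf1b and Mcm7 at -0.876 and E2f1 and Stmn1 (M300006321) at -0.235. The points share arrays and the same 2 sets of lactating controls, so these are descriptions of shape. Of 2466 to 2468 probes measured on all arrays with 1 symbol, the 3 most like E2f1 were Ss18l2 (r = 0.983), Ebag9 (0.958) and Ssr4 (0.957). For Mcm7 they were Ddx39b (0.989), Elp3 (0.982) and the fat cell gene Fabp4 (0.978). For Pcna they were Atp6v1c1 (0.952), Ipo8 (0.951) and Vasp (0.928), for Chaf1a Sidt2 (0.966), Lix1 (0.957) and Zc3h12d (0.953), for Chaf1b Ppp1r12c (0.983), Stag2 (0.971) and Mydgf (0.964), and for Stmn1 Akip1 (0.977), Crybg1 (0.967) and Cnih4 (0.962). None of the 18 is on the lists of replication or mitosis genes. Those lists hold only 13 and 3 of the 2901 tested genes, so this absence says nothing about the members.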

How the data were processed

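The authors deposited 1 table of linear ratios per probe and array, gland RNA (Cy5) and common reference RNA (Cy3) per the labels. Per the labels' protocols, RNA came from CsCl ultracentrifugation and was amplified. The sources used here do not give the scanner, background correction or normalization. Values of 0 and 0.01 (7.64% of values) were taken as missing. The other ratios were log2 transformed and each array was centred on its median (deposited medians 1 to 1.27). Probes with a value on at least 2 arrays of every group were tested, 5010 of 6267, with limma 3.58.1 in R 4.3.3, 1 mean per group, all 30 arrays, and Benjamini-Hochberg adjustment. The steps were checked on simulated data. Genes outside the 6 are named by rule: up to 4 per list with the largest mean difference over the 8 day comparisons among those passing in at least 2 (list counts name every tested member), and the 3 probes most like each gene. Probes of a listed gene were averaged, giving 2901 genes.

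Probes were named from GEO's platform annotation: 3997 carry 1 symbol, 115 several and 2155 none. Promoters are from RefSeq (GRCm38.p6). Python 3.11.15, pandas 2.3.3 and matplotlib 3.10.9 made tables and figures. Replicates are separate mice per the labels, and 3 per group limit the precision. The genes, lists, tests and promoter motifs were chosen with earlier results of these data known.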

Additional observations from a re-analysis of the deposited data

How the results depend on the processing

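Counts below are member values that passed. The 41 day differences became 37 to 42 with 1 array left out, and of these calls 24 held under every alternative. The 4 steps became 3 to 7 with 1 array left out, 7 after quantile normalization and 9 with array weights. The 2 genotype differences became 1 to 2 with 1 array left out, 1 with ratios at 0 or 0.01 set to the lowest other value, 1 on the log2(ratio + 0.1) scale, 4 with array weights and 0 with only the groups compared. Of these 2, 0 held under every alternative. The genotype by time count of 0 stayed 0 with any array left out, and became 4 with array weights and 1 both without wild type day 2 replicate 3 and E2F3 +/- day 4 replicate 3 and without the 2 that correlated below 0 with their groups, an alternative chosen after seeing the data. The genotype by time F test, 0 probes, gave 0 to 3 with 1 array left out, 1 after quantile normalization, 4 with array weights, and 1 and 3 without those pairs of arrays.

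By comparison, wild type day 1 (3) gave 5 with array weights. Wild type day 3 (6) gave 3 to 5 with 1 array left out, 2 with low ratios set to the lowest value and 3 on the log2(ratio + 0.1) scale. Wild type day 4 (4) and E2F3 +/- day 2 (5) gave 2 and 3 with probes measured on all 30 arrays only, which drops E2f1 and Chaf1b. Wild type day 4 gave 2 on the log2(ratio + 0.1) scale and E2F3 +/- day 2 gave 3 with low ratios set. The genotype difference at day 2 (1) gave 0 to 1 with 1 array left out and 0 with only the groups compared. At day 4 (1) it gave 0 to 1 with 1 array left out, 0 with low ratios set, on the log2(ratio + 0.1) scale or with only the groups compared, and 2 with array weights. At day 3 (0) it gave 1 without the 2 arrays correlating below 0, and over all times (0) 1 with array weights and 1 without wild type day 2 replicate 3 and E2F3 +/- day 4 replicate 3. Chaf1b on wild type day 3 turned from -1.28 to 0.23 and on day 1, not called, from -0.82 to 0.75 with low ratios set, because lactation replicate 2, listed at 0, then took the lowest value. Causes of the other changes were not tested.

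With the replicate number as a block, 41 day differences, 4 steps and 2 genotype differences passed, the same numbers as without it. The numbers do not pair the samples: same-numbered arrays of different groups deviated together with a mean correlation of 0.000302, the lowest -0.583, and 35 of 135 pairs were over 0.1. With 3 arrays a group, the number of arrays limits the precision of every value.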
